A study of Homo sapiens with 8 samples.

Results

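A set of 8 long noncoding RNAs was followed across sucrose gradients of human leukaemia cells: MALAT1, NEAT1, KCNQ1OT1 and MIAT, which are known mainly from the nucleus, NORAD and OIP5-AS1, which are known mostly from the cytoplasm, and TUG1 and PVT1, which are found in both. They were chosen by symbol, and each symbol matched 1 of the 78932 gene rows of the count table, so the set holds 8 of 78932 genes. The 8 libraries came from acute myeloid leukaemia cells labelled Molm13 or U937, both grown in RPMI1640 with fetal bovine serum, treated with cycloheximide to hold ribosomes on RNA, and lysed with Triton X-100. Molm13 is a monocytic line with a KMT2A fusion, and U937 is a monocyte-like line. Each line label had 1 gradient labelled OGFOD1 OE, made with a lentiviral overexpression vector, and 1 gradient labelled control. OGFOD1 is the prolyl hydroxylase of the ribosomal protein RPS23. Each of the 4 gradients gave a heavy pool, with the fractions of 3 or more ribosomes, and a light pool, with free ribonucleoprotein, monosomes and disomes. The groups OE heavy, OE light, control heavy and control light therefore held 2 libraries each, 1 for each line label. The labels do not say which promoter drove the vector or whether the lines were clones.

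Polysome profiling sorts RNA by how many ribosomes it carries, so that translated messages sediment into the heavy pool while RNA that is not translated should stay near the top of the gradient. Long noncoding RNAs can serve as a control for that separation. Those of the nucleus enter a detergent lysate only as far as nuclei leak or break, and those of the cytoplasm can sit in free particles or carry a few ribosomes. MALAT1 is an abundant RNA of nuclear speckles, NEAT1 is the scaffold of paraspeckles, KCNQ1OT1 silences its imprinted neighbours in cis, and MIAT forms nuclear domains of its own. NORAD binds Pumilio proteins, OIP5-AS1 (cyrano) directs decay of miR-7, TUG1 has been tied to Polycomb repression, and PVT1 lies beside MYC.

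MALAT1 and the long form of NEAT1 end without a poly(A) tail. RNase P cuts both transcripts before a tRNA-like small RNA, and the new end folds into a helix of U-rich and A-rich strands that guards it from decay. These ends are shown because both RNAs share them while, in the counts below, NEAT1 passed as lower in the heavy pools and MALAT1 did not. The sequences are from GENCODE 29 on GRCh38, plus strand. Capitals mark the 2 runs of 10 or more bases that the last 110 bases of both cleaved RNAs share.
MALAT1 U-rich strand, chr11:65506059-65506086: tgttttCTCAGGTTTTGCTTTTtggcct
NEAT1 U-rich strand, chr11:65445478-65445505: gccgcaCTCAGGTTTTGCTTTTcacctt
MALAT1 last 24 bases, chr11:65506093-65506116: agcttaaaaaaaaAAAAAGCAAAA
NEAT1 last 24 bases, chr11:65445517-65445540: aagagtgagcaggAAAAAGCAAAA
Of 206694 annotated transcripts searched on the sense strand, 2 held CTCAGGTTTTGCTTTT (0.000968%), 1 of MALAT1 and 1 of NEAT1, each followed within 60 bases by AAAAAGCAAAA. The A-rich run alone was present in 0.437% of transcripts. Both runs were taken from these 2 ends, so their presence there was fixed in advance. Only their presence in other transcripts was open.

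NORAD is shown for its Pumilio sites, which were denser in it than in the other members. Its 5339-base transcript held 15 copies of TGTANATA on the sense strand and 1 on the antisense strand, which is 2.81 sites per 1000 bases. Of 4358 transcripts within 10% of its length, its own included, 42.9% held 1 or more copies. As many as in NORAD were held by 3 of them (0.0688%), NORAD itself among these. Pairs of copies lay in tandem, with starts 9 bases apart, in the 3 places below (GRCh38, minus strand, capitals mark TGTANATA).
NORAD, chr20:36049497-36049525: tatctgTGTATATAgTGTACATAaaggac
NORAD, chr20:36048300-36048328: ctatacTGTATATAtTGTATATAtaacgg
NORAD, chr20:36047664-36047692: gtgctgTGTATATAgTGTATATAagcgga
Among the other members, counted on 1 transcript each, the sense copies were 9 in KCNQ1OT1 over 91667 bases, 6 in NEAT1 over 22743 bases, 2 in TUG1, 1 in OIP5-AS1 and 0 in MALAT1, MIAT and PVT1, at most 0.268 sites per 1000 bases.

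The labels were checked first with OGFOD1 (ENSG00000087263). It stood at 25.3 and 12.4 CPM (counts per 1000000 counts of a library, with TMM scaling) in the Molm13 and U937 libraries labelled OE heavy, against 44.4 and 60.2 CPM in control heavy. In the light pools it stood at 16.7 and 10.1 CPM in OE, against 33.0 and 49.8 CPM in control. OGFOD1 was thus lower in the libraries labelled OE in all 4 comparisons (log2 fold change -1.60, SE 0.30, edgeR adjusted p = 0.0178), opposite to the label, so every direction drawn below from the genotype is that of the libraries labelled OE and not of a measured rise in OGFOD1. Libraries held 25741930 to 89373133 counts over 27392 to 33915 genes. Mitochondrial genes took 0.36% to 0.94% of counts in the heavy libraries. They took 2.49% in the light library of Molm13 control and 19.8% to 23.3% in the other light libraries, so this light library stood apart. All 10 myeloid markers examined had counts in all 8 libraries, with SPI1 at 44.4 to 203 CPM. Of 9 markers of other cells, MS4A1 was at 0 in every library and PECAM1 stood at 41.1 to 124 CPM. FLT3 stood at 85.3 to 202 CPM and did not pass between the Molm13 and U937 labels (log2 0.07, SE 0.28, edgeR adjusted p = 0.947). MEIS1 was at -0.35 (SE 0.22) in that test, and the 10 myeloid markers had 7 positive and 3 negative values with 0 passing. Between the line labels 0 of 24289 genes passed, while in the same fit 6937 passed between pools and 1061 between genotype labels. The line labels are therefore not borne out by these values, and why was not tested. The identity of the lines was taken from the labels.

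How the reads were counted bears on each member. The count of TALAM1, the antisense partner of MALAT1, came to between 99.9% and 100.0% of the MALAT1 count per library, so reads of overlapping genes were entered in both rows and the strand was not resolved. KCNQ1OT1 lies inside KCNQ1, which held 97.2% to 476% as many counts as KCNQ1OT1. MIAT overlaps the antisense Z99774.1. Relative to the MIAT count, Z99774.1 held 91.3% to 100.0% in the heavy libraries and 22.4% to 90.2% in the light ones. MIAT also overlaps MIATNB on the same strand, which held 267% to 1409% as many counts as MIAT. How much of the KCNQ1OT1 and MIAT counts came from these neighbours was not tested. OIP5-AS1 shares bases with OIP5 and with ENSG00000285920. Relative to the OIP5-AS1 count, the last of these held 62.6% to 127% in the heavy libraries and 20.5% to 46.0% in the light ones. Part of the OIP5-AS1 signal therefore cannot be told from a protein-coding neighbour. TUG1 shares bases with AC004542.2, at 15.3% to 24.5% of its counts. NORAD overlaps no other annotated gene listed here.

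In level per length, MALAT1 led the members in all libraries but control light of U937, where OIP5-AS1 at 83.6 and NORAD at 72.5 CPM per 1000 bases stood above its 66.8. Divided by the length of the exons in GENCODE 29, its level averaged 223 CPM per 1000 bases over the 8 libraries, with a range of 56.6 to 709. OIP5-AS1 averaged 32.9 CPM per 1000 bases (6.84 to 83.6) and NORAD 29.9 (4.23 to 72.5), and these neighbours in the order did not differ beyond their spread. TUG1 at 6.35 (2.37 to 10.1), NEAT1 at 5.72 (1.12 to 14.2) and PVT1 at 4.71 (2.13 to 8.95) formed a lower tier whose ranges overlapped. MIAT at 0.0770 (0.0243 to 0.164) and KCNQ1OT1 at 0.0212 (0.0108 to 0.0486) were the scarcest, and rested on 23 to 98 and 27 to 214 reads in a library.

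**Figure D1:**
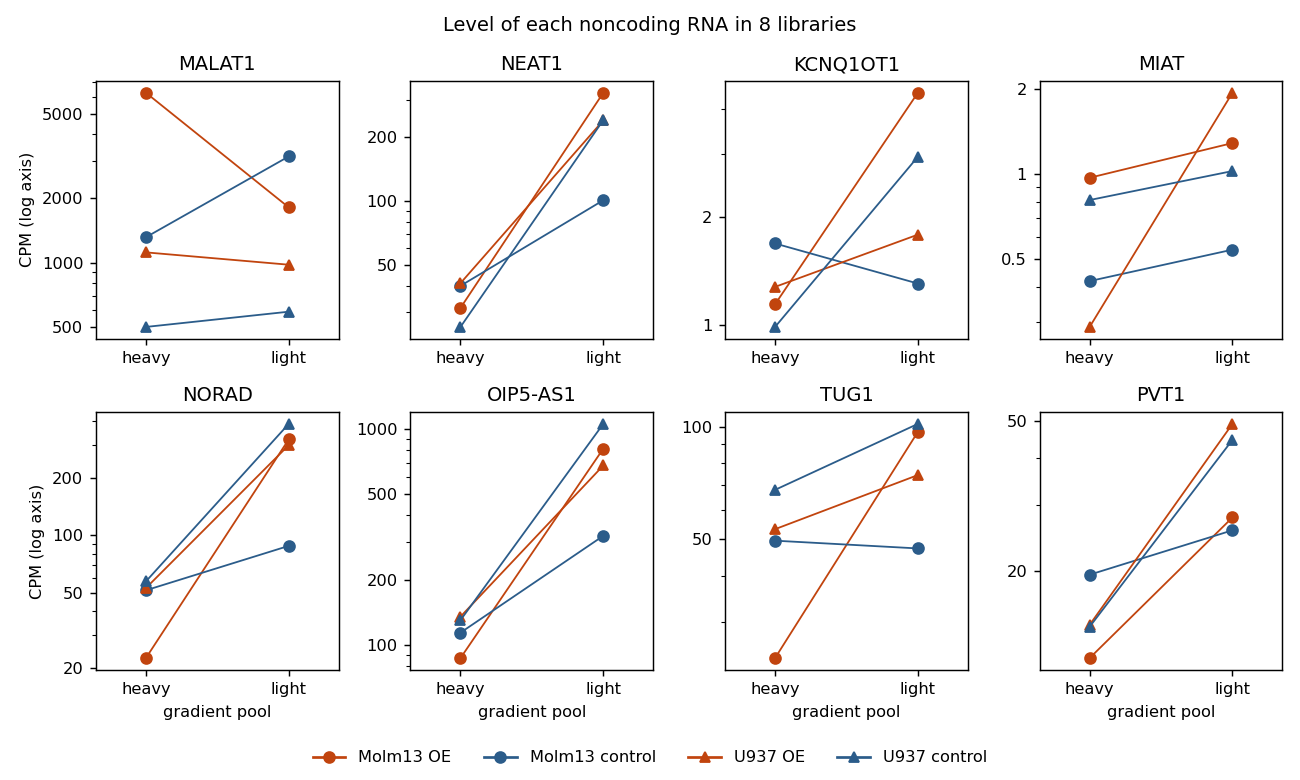
Level of each noncoding RNA in CPM on a log axis (the axis range differs by panel), in the heavy pool at the left and the light pool at the right. Lines join the pools of a gradient, orange for OE and blue for control, circles for Molm13 and triangles for U937. The lines of NEAT1, NORAD, OIP5-AS1 and PVT1 all run to a lower heavy level, while those of MALAT1 cross.

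The heavy pools were compared with the light pools to ask how far the noncoding RNAs stayed out of the polysomes. NEAT1, OIP5-AS1 and NORAD were lower in the heavy pool by about the same factor, PVT1 was lower by less, and MALAT1 was not. Among the 8 members 4 passed as lower and 0 as higher, where 12.8% of the 24289 tested genes passed as lower and 15.8% as higher (28.6% in either direction). The median log2 fold change of all tested genes was -0.04. CPM is a share of the library, so a lower heavy level says that an RNA was scarcer relative to the rest of that pool and not what part of its molecules the pool held. Neither can a change in the number of cells of a type be told from a change of RNA in each cell in such bulk samples. The line label served as the replicate and no label describes separate cultures, so the spread behind each p-value is that of these libraries and may be technical. Where heavy and light libraries are said not to overlap, the share of all tested genes that separate likewise was not computed.

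NEAT1 (ENSG00000245532, chr11:65422774-65445540, plus strand) stood at 31.4 and 41.1 CPM in the Molm13 and U937 OE heavy libraries and at 39.9 and 25.6 CPM in the control heavy libraries. In the light libraries it stood at 323 and 239 CPM in OE and at 101 and 240.1 CPM in control. Every heavy library was below every light library, and Molm13 control light was the lowest of the light ones. The means were 34.5 ± 7.34 CPM heavy and 226 ± 92.0 CPM light (SD, n = 4 each), and NEAT1 was 6.30-fold lower in the heavy pools (log2 -2.66, SE 0.34, edgeR adjusted p = 0.000626). Only 2.69% of tested genes had a lower fold change.

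NORAD (ENSG00000260032, chr20:36045622-36050960, minus strand) stood at 22.6 and 52.8 CPM in the Molm13 and U937 OE heavy libraries and at 51.4 and 57.3 CPM in control heavy. Its light levels were 321 and 299 CPM in OE and 88.1 and 387 CPM in control. The heavy and light libraries did not overlap, and the lowest light level was again that of Molm13 control. NORAD was 5.84-fold lower in the heavy pools (log2 -2.55, SE 0.37, edgeR adjusted p = 0.000863), with means of 46.0 ± 15.8 CPM heavy and 274 ± 129 CPM light (SD, n = 4 each).

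OIP5-AS1 (ENSG00000247556, chr15:41283990-41309737, plus strand) stood at 86.7 and 135 CPM in the Molm13 and U937 OE heavy libraries and at 114 and 129.9 CPM in control heavy. Its light levels were 813 and 679 CPM in OE and 320.1 and 1059 CPM in control. Here too no heavy library reached a light one. OIP5-AS1 was 6.06-fold lower in the heavy pools (log2 -2.60, SE 0.36, edgeR adjusted p = 0.000759).

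PVT1 (ENSG00000249859, chr8:127794533-128101253, plus strand) differed by a smaller factor. Its levels were 11.7 and 14.3 CPM in the Molm13 and U937 OE heavy libraries and 19.5 and 14.2 CPM in control heavy, against 27.7 and 49.2 CPM in OE light and 25.6 and 44.6 CPM in control light. The heavy and light libraries did not overlap, although the light libraries split by line label, with both U937 libraries above both Molm13 libraries. PVT1 was 2.39-fold lower in the heavy pools (log2 -1.25, SE 0.26, edgeR adjusted p = 0.00442). These 4 calls held in each of 8 fits that left out 1 library.

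MALAT1 (ENSG00000251562, chr11:65497688-65506516, plus strand) showed no such difference. It stood at 6258 and 1118 CPM in the Molm13 and U937 OE heavy libraries and at 1316 and 500.0 CPM in control heavy. In the light libraries it stood at 1817 and 979 CPM in OE and at 3147 and 589 CPM in control. The groups overlapped throughout, and the highest and lowest of the 8 levels were both in heavy libraries. The means were 2298 ± 2663 CPM heavy and 1633 ± 1132 CPM light (SD, n = 4 each), with a log2 fold change of 0.10 (SE 0.37, edgeR adjusted p = 0.874). It turned to -0.077 with upper-quartile scaling and to -0.83 with scaling to 18 housekeeping mRNAs, which moved the median of all genes to -0.22 and -1.05. Relative to those medians MALAT1 was at 0.14 and 0.22, and at 0.13 in the fit reported.

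TUG1, KCNQ1OT1 and MIAT had negative fold changes that missed the threshold. TUG1 (ENSG00000253352, chr22:30969245-30979395, plus strand) stood at 24.0 and 53.3 CPM in the Molm13 and U937 OE heavy libraries and 49.6 and 67.9 CPM in control heavy, against 97.1 and 74.4 CPM in OE light and 47.3 and 102 CPM in control light. The groups overlapped because Molm13 control light lay below 3 heavy libraries (log2 -0.79, SE 0.28, edgeR adjusted p = 0.0538). KCNQ1OT1 (ENSG00000269821, chr11:2608328-2699994, minus strand) stood at 1.14 and 1.28 CPM in OE heavy and 1.69 and 0.986 CPM in control heavy, against 4.45 and 1.79 CPM in OE light and 1.30 and 2.95 CPM in control light. Molm13 control was the gradient in which KCNQ1OT1 was higher in the heavy pool (log2 over all gradients -1.01, SE 0.40, edgeR adjusted p = 0.0761). MIAT (ENSG00000225783, chr22:26646428-26676475, plus strand) stood at 0.972 and 0.288 CPM in OE heavy and 0.418 and 0.810 CPM in control heavy, against 1.29 and 1.94 CPM in OE light and 0.540 and 1.03 CPM in control light. It was lower in the heavy pool of each gradient, but the groups overlapped (log2 -0.86, SE 0.50, edgeR adjusted p = 0.214). Without the light library of Molm13 control, KCNQ1OT1 at -1.33 (edgeR adjusted p = 0.00178) and TUG1 at -0.91 (edgeR adjusted p = 0.00279) passed as lower, which made 6 of 8 members in a fit where 9502 of 26553 genes passed, 5368 of them as higher. Both also passed without U937 OE light. Over the 8 fits that left out 1 library, KCNQ1OT1 ran from -1.33 to -0.42 and TUG1 from -1.05 to -0.41.

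**Figure D2:**
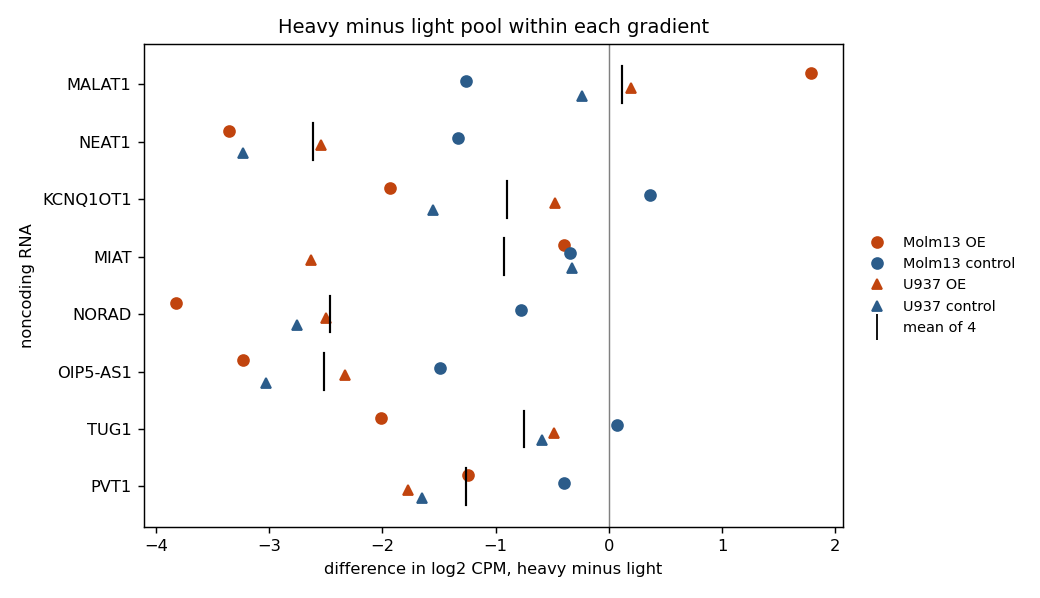
Heavy minus light difference in log2 CPM (x axis) for each noncoding RNA (y axis) in the 4 gradients, with the mean of 4 as a black line. NEAT1, NORAD and OIP5-AS1 lie at -3.82 to -0.78 in every gradient, whereas MALAT1 runs from -1.26 in Molm13 control to 1.78 in Molm13 OE.

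The nuclear members were set against the cytoplasmic ones within each gradient. The mean heavy minus light difference of MALAT1, NEAT1, KCNQ1OT1 and MIAT was above that of NORAD and OIP5-AS1 in all 4 gradients. The mean log2 difference was -0.98 for the nuclear and -3.53 for the cytoplasmic members in Molm13 OE, and -1.36 and -2.42 for the same sets in U937 OE. In Molm13 control these means were -0.64 nuclear and -1.14 cytoplasmic, and in U937 control -1.34 nuclear and -2.89 cytoplasmic. The nuclear set was therefore higher by 2.55, 1.05, 0.49 and 1.56 on the log2 scale in those gradients, with a mean of 1.41 ± 0.87 (SD, n = 4 gradients). No test was made of this mean, since the members were named with results of these data known. Counts of Z99774.1 relative to MIAT, and of ENSG00000285920 relative to OIP5-AS1, were higher in the heavy than the light library of every gradient. The part of these neighbours in the mean was not tested.

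The split did not run along the line between nucleus and cytoplasm for every RNA. NEAT1 lay between NORAD and OIP5-AS1 in both Molm13 gradients and below both in the U937 gradients, at -3.36 in Molm13 OE, -2.54 in U937 OE, -1.34 in Molm13 control and -3.23 in U937 control. MALAT1 was the highest of the 8 members in 3 gradients, at 1.78 in Molm13 OE, 0.19 in U937 OE and -0.24 in U937 control, and was below 5 of the other members in Molm13 control at -1.26. MIAT was above both cytoplasmic members in 3 gradients and below both in U937 OE, where its difference of -2.63 rested on 23 heavy and 98 light reads. KCNQ1OT1 was above both cytoplasmic members in all 4 gradients, and was at 0.36 in Molm13 control. The smallest differences of NEAT1, NORAD, OIP5-AS1 and PVT1 were those of Molm13 control, the gradient whose light library held few mitochondrial counts. The part of that library in these differences was not tested.

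Other noncoding RNAs and the mRNAs of partner proteins placed the members in context. Of 4321 tested genes of the long noncoding classes, 16.6% passed as lower in the heavy pools and 8.77% as higher, with a median log2 fold change of -0.33. The shares among 13575 protein-coding genes were 10.6% lower and 21.8% higher, with a median of 0.15. Of 13 tested long noncoding RNAs in a list of known ones, 10 passed as lower and 0 as higher (median -1.88). MIR17HG, the host of a microRNA cluster, was at -3.90, CRNDE at -2.33 and JPX, an activator of XIST transcription, at -2.11 on the log2 scale. Of 16 host RNAs of small nucleolar RNAs, which are spliced, exported and known to engage ribosomes before decay, 15 passed as lower (median -1.88), with SNHG4 at -2.64, DANCR at -2.57 and EPB41L4A-AS1 at -2.29. NEAT1, NORAD and OIP5-AS1, at -2.66 to -2.55, lay at the low end of these lists. Of 5 tested small structural RNAs 3 passed as lower (median -1.02), namely RPPH1, the RNA of RNase P, at -1.66, RMRP at -1.02 and RN7SL1, the signal recognition particle RNA, at -0.73.

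Most mRNAs of proteins that assemble with the nuclear members had positive fold changes. These were 11 of 14 for nuclear speckles, with 3 negative, and 11 of 13 for paraspeckles, with 2 negative. Of 14 mRNAs of nuclear speckle proteins, 9 passed as higher in the heavy pools and 0 as lower (median 1.00), among them those of the splicing factors SRSF2 at 1.42 and SRSF3 at 1.30 and of the speckle scaffolds SON at 1.23 and SRRM2 at 1.17. Of 13 mRNAs of paraspeckle proteins, 5 passed as higher and 1 as lower (median 0.56). SMARCA4 was at 1.60, SMARCB1 at 1.23 and HNRNPH3 at 1.05, and the lower one was NONO, a core paraspeckle protein, at -1.06. Among mRNAs of NORAD-binding proteins PUM2 passed as lower at -0.86, and RBMX at -0.70 and KHDRBS1 at -0.48 did not pass. Housekeeping mRNAs gave 10 of 18 as higher (median 1.06). With scaling to those housekeeping mRNAs the speckle list turned to 0 higher and 3 lower and the paraspeckle list to 0 higher and 5 lower, while their medians stayed 1.05 and 0.55 above that of all genes, against 1.04 and 0.60 in the fit reported. All these fold changes are from edgeR's quasi-likelihood fit, with a call at an adjusted p under 0.05.

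**Figure D3:**
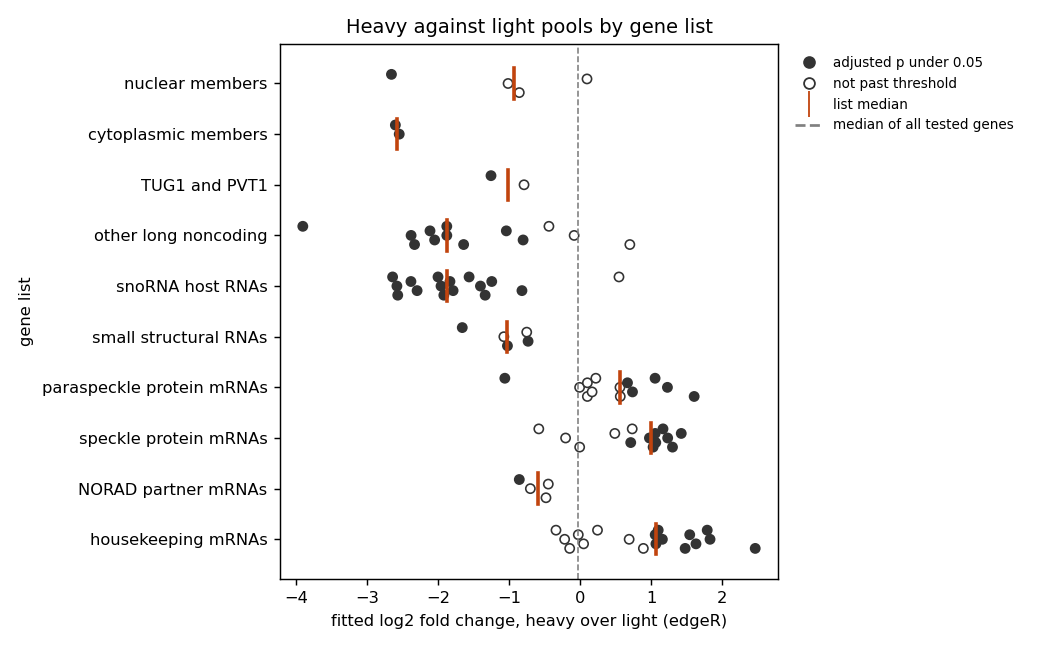
Fitted log2 fold change of the heavy over the light pools (x axis) for the genes of each list (y axis). Filled points passed an edgeR adjusted p of 0.05, orange lines are list medians and the dashed line is the median of all tested genes, -0.04. Host RNAs of small nucleolar RNAs and the other long noncoding RNAs sit around medians of -1.88, and speckle protein mRNAs around 1.00.

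Reads in short features annotated inside the members gave a rough view of which stretches were sampled. Just after the shown 3′ ends, the small RNA released from MALAT1 held 18 reads over the 8 libraries and that of NEAT1 held 0. Within NEAT1, 3 structured features that start 500, 865 and 1187 bases into the gene, of 120, 105 and 159 bases, held 72, 128 and 179 reads in all. MIR612, of 100 bases and 21685 bases into the gene, held 6. NEAT1 is known to be made as a short polyadenylated and a long form that share their 5′ end, and the gene row sums both. In MALAT1 a 95-base feature that starts 5227 bases into the gene held 0.247% to 2.26% of the MALAT1 count, against 0.0243% to 0.0548% for AP000769.2, which covers 396 bases beginning 323 bases into the gene. These shares depend on how many bases of a read must lie in a feature and were not tested.

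The genotype labels were compared next. None of the 8 members passed between the libraries labelled OE and control over both pools, where 4.37% of 24289 genes did (edgeR, 1061 genes, with 2.01% of genes higher and 2.36% lower). Without the pairing of libraries by line label 116 genes passed, and the count was 18 to 3567 with 1 library left out. At an unadjusted p under 0.05, which 5384 of 24289 genes reached, the only member was MALAT1. Its log2 fold change was 0.87 (SE 0.38, edgeR adjusted p = 0.195), and it was higher in OE in 3 of 4 comparisons. In the heavy pools MALAT1 was 4.75-fold higher in OE than in control for Molm13 and 2.24-fold higher for U937. In the light pools it was 1.66-fold higher in OE for U937, while Molm13 OE stood at 1817 CPM against 3147 CPM in Molm13 control. Without the light library of Molm13 control the MALAT1 difference was 1.10 and passed (edgeR adjusted p = 0.00940). That was 1 of 8 fits that left out a library to pass, and the value ran from 0.51 without U937 OE light to 1.11 without Molm13 OE light. It also passed with DESeq2 at 0.88 (adjusted p = 0.0359).

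The other members were closer to 0 or varied in sign between the line labels. MIAT was at 0.55 (SE 0.50), NEAT1 at 0.44 (SE 0.32), KCNQ1OT1 at 0.19 (SE 0.40), OIP5-AS1 at 0.06 (SE 0.35) and NORAD at 0.0022 (SE 0.35), while PVT1 was at -0.14 (SE 0.26) and TUG1 at -0.16 (SE 0.28). NORAD averaged near 0 from unlike parts, since OE minus control was 1.86 in the Molm13 light pool and -1.18, -0.37 and -0.12 in Molm13 heavy, U937 light and U937 heavy. OIP5-AS1 likewise ran from 1.34 in Molm13 light to -0.64 in U937 light. For NEAT1, KCNQ1OT1, MIAT, NORAD, OIP5-AS1 and TUG1 the Molm13 light pool gave the highest value, and it is the comparison that uses Molm13 control light. Whether that library carries these values was not tested for the members beyond its removal, after which NORAD was at -0.34 and OIP5-AS1 at -0.28 with neither past the threshold. Of the mRNAs of partner proteins, the paraspeckle genes SMARCA4 at -1.05 and HNRNPH3 at -1.01 and the speckle gene SRSF2 at -1.10 fell in OE (edgeR adjusted p of 0.0323, 0.0336 and 0.0370), the last as 1 of 14 tested speckle genes. DANCR fell by 1.56 on the log2 scale, as 1 of 16 small nucleolar host RNAs (edgeR adjusted p = 0.0231). Of these comparisons 0 genes passed when the pools of a gradient were summed, where 4278 of 25667 genes had an unadjusted p under 0.05 (edgeR).

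**Figure D4:**
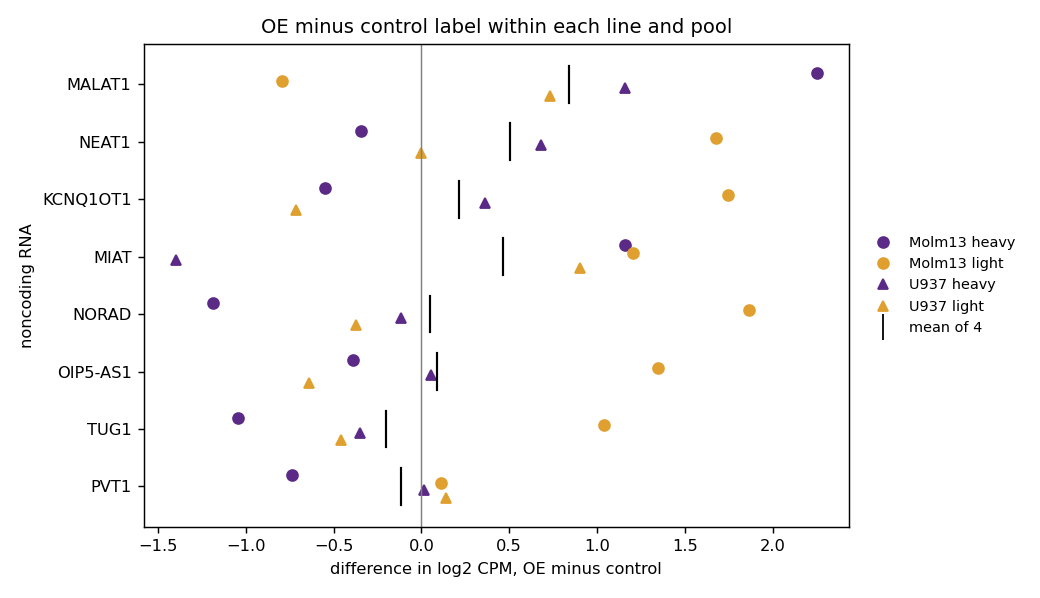
OE minus control difference in log2 CPM (x axis) for each noncoding RNA (y axis), with purple for heavy and yellow for light pools, circles for Molm13, triangles for U937 and a black line for the mean of 4. MALAT1 runs from -0.79 in Molm13 light to 2.25 in Molm13 heavy, and NORAD from -1.18 in Molm13 heavy to 1.86 in Molm13 light.

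Whether the pool difference itself varied with the genotype label was tested as an interaction. MALAT1 had the most positive value of the members: its heavy minus light difference was 1.78 and 0.19 in the Molm13 and U937 gradients labelled OE and -1.26 and -0.24 in those labelled control. The interaction was 1.72 on the log2 scale (SE 0.77, unadjusted p = 0.0431, edgeR adjusted p = 0.791) and did not pass. NORAD at -1.36 (SE 0.73), MIAT at -1.03 (SE 0.99) and TUG1 at -1.02 (SE 0.58) lay on the other side of 0 and also did not pass. Over all genes 0 of 24289 passed (0%), with 1431 at an unadjusted p under 0.05, while DESeq2 called 4. Without the light library of U937 control 1371 genes passed, among them MALAT1 at 2.19 (edgeR adjusted p = 0.0219) and NORAD at -2.21 (edgeR adjusted p = 0.00626). Over the fits that left out 1 library MALAT1 was lowest at 1.11, without Molm13 OE light, and highest at 2.32, without U937 OE light. NORAD was closest to 0 at -0.51, without Molm13 control light.

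Between the line labels MALAT1 again differed most. It was higher in Molm13 than in U937 in all 4 matched groups, by 5.60-fold in OE heavy, 1.86-fold in OE light, 2.63-fold in control heavy and 5.34-fold in control light, and the 4 Molm13 levels were all above the 4 U937 levels. The log2 fold change was 1.80 (SE 0.39, unadjusted p = 0.000513, edgeR adjusted p = 0.186), and 1.41% of tested genes had a higher one. It did not pass, in a comparison in which 0 of 24289 genes passed (0%), 2862 had an unadjusted p under 0.05, and DESeq2 called 305 genes, MALAT1 among them (adjusted p = 1.46e-05). MALAT1 also passed when the light library of Molm13 control (1.58, edgeR adjusted p = 0.00265) or of U937 control (1.58, edgeR adjusted p = 0.00277) was left out. The other members lay between -0.84 for NORAD and 0.20 for KCNQ1OT1, and their Molm13 and U937 libraries overlapped. The share of all tested genes whose Molm13 and U937 libraries do not overlap was not computed.

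Across the 8 libraries NEAT1, NORAD, OIP5-AS1 and PVT1 varied together, TUG1 and KCNQ1OT1 followed them less closely, and MALAT1 did not vary with them. Pearson correlations of log2 CPM were 0.98 between NORAD and OIP5-AS1, 0.97 between NEAT1 and OIP5-AS1, 0.94 between NEAT1 and NORAD and 0.92 between NORAD and PVT1, over heavy and light libraries together. With those same RNAs TUG1 ran from 0.70 (NEAT1) to 0.89 (NORAD) and KCNQ1OT1 from 0.64 (PVT1) to 0.84 (NEAT1). Correlations within a pool were not computed. MALAT1 correlated with the other members at -0.75 (TUG1) to -0.05 (MIAT). Among about 8360 other genes with a symbol and a mean of at least 10 CPM, the genes most like MALAT1 were SCIMP (r = 0.979), ZNF594-DT (r = 0.978) and CRCP (r = 0.937). The most like NEAT1 were LRRC75A, PCGF3-AS1 and CCNYL1 (r = 0.985 to 0.987), and the most like NORAD were NUFIP2, ZNF431 and RBM12B (r = 0.995 to 0.998). For OIP5-AS1 these were the mitochondrial tRNA genes MT-TP and MT-TT and the mRNA USP12 (r = 0.993 to 0.994). TUG1 was closest to NUP58 (r = 0.988), PVT1 to ERCC6L2-AS1 (r = 0.982), KCNQ1OT1 to AFF1 (r = 0.963) and MIAT to RPL13 (r = 0.900). These values describe 8 libraries that share lines, gradients and depth, and are the highest of many.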

How the data were processed

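Whole-number read counts per Ensembl gene were deposited by the authors as 1 table of 8 libraries. Trizol extraction and a Smart-seq kit (a chemistry known not to mark strand) were used per the labels' protocols. The submitters' processing notes name cutadapt, STAR, featureCounts and GRCh38, with no version, annotation release or strand setting. Symbols were found for 42179 of 78932 IDs and positions in GENCODE 29 for 57356, which need not be the authors' release.

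The tests were edgeR quasi-likelihood tests (edgeR 4.0.16, R 4.3.3) after filterByExpr and TMM scaling, modelling group and line label (3 residual degrees of freedom). Common biological coefficient of variation was 0.359. P-values were adjusted by Benjamini-Hochberg over all 24289 tested genes, with a threshold of 0.05. All 8 members passed the filter. CPM was computed here with TMM scaling, and per-gradient differences used log2 CPM with a prior count of 2. SEs are from the quasi-likelihood F statistic. Scripts were tested on simulated counts.

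Libraries are paired by line label, taken as cells of the same line. Deviations from group means correlated between groups at 0.0169 to 0.338. Pools of a gradient counted as independent in comparisons over both pools. Named genes were the members, OGFOD1, overlapping genes, up to 4 genes of smallest p per list and, per member, the 3 most correlated genes. Alternatives were other scalings, no filter, DESeq2 1.42.0, limma voom 3.58.1, other blocks, gradients summed and each library left out. The members and lists were chosen with earlier results of these data known. Values of some genes of these lists are not reported here.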

Additional observations from a re-analysis of the deposited data

Results flagged for a closer look

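MALAT1 was singled out because its pool difference had opposite signs under the genotype labels in every gradient. The heavy minus light difference in log2 CPM averaged 0.99 in the 2 gradients labelled OE and -0.75 in the 2 gradients labelled control, a difference of 1.74. The interaction test of this difference did not pass (edgeR adjusted p = 0.791), and the libraries labelled OE held less OGFOD1 than those labelled control.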

How the results depend on the processing

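For heavy against light, NEAT1, NORAD, OIP5-AS1 and PVT1 kept their direction and their side of the threshold in each of the 9 other fits of all libraries and the 8 that left out 1 library. Genes past the threshold numbered 6937 in the fit reported (55.3% higher), 7165 with upper-quartile scaling (39.7% higher), 11781 with housekeeping scaling (3.78% higher) and 3801 to 9502 with 1 library left out, whose group then held 1 library assumed to vary like the others. The count fell furthest without U937 OE heavy (3801), U937 control heavy (4007), Molm13 OE light (4043) and Molm13 OE heavy (4069). MALAT1 reversed to -0.077 with upper-quartile scaling and -0.83 with housekeeping scaling, and ran from -0.15 to 0.46 with 1 library left out. MIAT passed with housekeeping scaling, and TUG1 and KCNQ1OT1 passed with it, with upper-quartile scaling, without a filter, with DESeq2, and without Molm13 control light or U937 OE light, and TUG1 also with RLE size factors. The nuclear minus cytoplasmic mean difference was 1.40 to 1.43 under the other scalings and prior count.

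For OE against control, 1061 genes passed in the fit reported, 633 with library totals, 2299 without a filter, 2679 with DESeq2, 0 with gradients summed and 18 to 3567 with 1 library left out (18 without U937 OE heavy, 297 without U937 control heavy, 449 without Molm13 OE heavy, 525 without U937 OE light, 589 without Molm13 control heavy, 2460 without U937 control light and 3567 without Molm13 control light). NORAD reversed to -9.8e-05 with RLE size factors, -0.18 with housekeeping scaling, -0.022 without a filter and -0.00026 with DESeq2, and OIP5-AS1 to -0.11 with housekeeping scaling. With gradients summed TUG1 reversed to 0.11 and PVT1 to 0.023. With 1 library left out the ranges were -0.36 to 0.50 for NORAD, -0.28 to 0.48 for OIP5-AS1, -0.25 to 0.72 for KCNQ1OT1, -0.17 to 1.11 for MIAT, -0.54 to 0.11 for TUG1 and -0.41 to 0.16 for PVT1. NEAT1 passed without U937 control light (0.87, edgeR adjusted p = 0.0335).

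Without the replicate block of line labels, 116 genes passed between OE and control, NORAD was at -0.071 and OIP5-AS1 at -0.012, and 5402 genes passed between pools. With the gradient as the block 7109 passed between pools. The block changed no member's call.

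For the interaction, 0 genes passed in the fit reported, 74 without a filter, 4 with DESeq2 and 0 to 1371 with 1 library left out (2 without U937 control heavy, 1371 without U937 control light). The ranges of members that reversed were -1.38 to 0.089 for NEAT1, -1.49 to 0.34 for KCNQ1OT1, -2.50 to 0.058 for MIAT, -1.27 to 0.25 for OIP5-AS1 and -1.15 to 0.076 for PVT1. Between line labels 0 genes passed in the fit reported, 1 with library totals, 1 with limma voom, 2558 with housekeeping scaling, 412 without a filter, 305 with DESeq2 and 0 to 131 with 1 library left out (114 to 131 without any one of the light libraries). KCNQ1OT1 reversed to -0.38 with housekeeping scaling and ran from -0.20 to 0.67 with 1 library left out, and NEAT1 reversed to 0.17 with gradients summed and ran from -0.41 to 0.23. The causes were not tested. With n = 2 libraries per group, and 23 to 214 reads for MIAT and KCNQ1OT1, small differences were not detectable.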
